A study of Homo sapiens with 14 samples.

Results

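IMR90 cells are primary human fibroblasts of fetal lung. SLC14A1, AMIGO2 and KCNG1 are 3 genes picked out, of 15338 tested, for their rises after knockdown of HMGB2 in these cells. They were selected on that contrast, so their knockdown values are given as a description with no test, while their levels in replicative senescence and after inflachromene treatment played no part in the choice. The labels list 7 groups of poly(A) RNA-seq, each with 2 replicates. WT is labelled as wild type and HMGB2 KD cells were given siRNA against HMGB2, with 2 count tables each; the isolate of these cells, and whether WT received a control siRNA, are not given. I79 young, I79 old, I10 young and I10 old are proliferating and serially passaged, senescent cells of the isolates I79 and I10, with 1 table per group, so that a table either pools the replicates or holds 1 of them. I79 ICM is young I79 exposed to inflachromene (ICM), a small molecule that binds HMGB1 and HMGB2, with 2 tables.

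HMGB2 is an abundant chromatin protein that binds and bends DNA through its HMG boxes, and its loss is an early event of entry into senescence. The genes described here encode 3 unrelated membrane proteins. SLC14A1 is the urea transporter UT-B, known from red blood cells, where it carries the Kidd blood group, and from the renal medulla. AMIGO2 is a single-pass adhesion protein with leucine-rich repeats and an immunoglobulin domain, of a family named after amphoterin, an older name of HMGB1. KCNG1 is a modifier subunit of voltage-gated potassium channels: it makes no channel alone and assembles with pore-forming subunits, whose gating it changes.

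The WT and HMGB2 KD libraries held 33561766 to 41168932 counts, each old or young table from 14598433 to 20055750 estimated reads on annotated genes, and the ICM libraries 13290131 and 10971132 estimated reads. All 10 of 10 fibroblast markers (among them COL1A1, COL1A2, PDGFRA and THY1) reached 1 CPM (a count scaled to library size, per 1e6 counts) in at least 1 library, with a summed level of 14400 to 46500 CPM. Their sum was 26100 and 34400 CPM in WT but 39400 and 46500 CPM after knockdown, so it did not overlap between these groups, and its part in the results was not tested. Single markers went both ways: COL1A1 had 5420 and 8590 CPM in WT and 11700 and 15000 CPM after knockdown, while COL3A1 went from 3050 and 3820 CPM to 1390 and 1490 CPM and PDGFRA from 1650 and 1900 CPM to 1170 and 923 CPM. KLF1, a regulator particular to the erythroid lineage, in which SLC14A1 is known, was listed at 0 in every library. Of 4 endothelial markers 2 reached 1 CPM (KDR and VWF; summed level 0.42 to 10.2 CPM, CDH5 at 0 throughout), and of 4 glial markers 2 did (SLC1A3 and GFAP; 0.22 to 2.70 CPM, AQP4 at 0 throughout). Of 4 epithelial markers 1 did (KRT18; 18.0 to 81.6 CPM). Of 4 immune markers CD14 and CD68 did (24.6 to 160.0 CPM), and CD68, which also marks lysosomes, went from 24.4 to 160.0 CPM between I79 young and old and from 26.7 to 81.2 CPM in I10; its part in the old against young results was not tested. In bulk RNA, fewer cells that express a gene and less RNA per cell cannot be told apart.

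In GRCh37, SLC14A1 (ENSG00000141469) lies on chromosome 18 from 43266990 to 43332485 on the plus strand. AMIGO2 (ENSG00000139211) lies on chromosome 12 from 47469490 to 47473742 on the minus strand, and KCNG1 (ENSG00000026559) on chromosome 20 from 49620193 to 49639644 on the minus strand. Each overlaps another annotated gene on the opposite strand: SLC14A1 shares 60191 bases with the antisense RNA RP11-116O18.3, AMIGO2 shares 357 bases at its 5′ end with the first part of PCED1B, and KCNG1 shares 6364 bases with a long noncoding RNA (ENSG00000232358). Whether reads were counted by strand is not given in the sources used here, so reads of these overlaps may be shared between partners.

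The 250 bases before the starts of the transcripts that held most reads of SLC14A1 and AMIGO2 are shown here to place these starts in the genome; other transcripts of SLC14A1 start elsewhere, and the knockdown tables hold no values per transcript. They were taken from RefSeq (GRCh38.p14), which gave 2 starts for each of these 2 genes, and matched GRCh37 exactly and at 1 place each. The SLC14A1 sequence, chr18:43303896-43304145 on the plus strand of GRCh37, ends 1 base before the start of SLC14A1-201. The AMIGO2 sequence, chr12:47473743-47473992 on the minus strand, ends 1 base before the start of AMIGO2-203 and lies within the annotated body of PCED1B. Capitals mark matches to any of 7 short motifs on either strand.
SLC14A1-201 upstream: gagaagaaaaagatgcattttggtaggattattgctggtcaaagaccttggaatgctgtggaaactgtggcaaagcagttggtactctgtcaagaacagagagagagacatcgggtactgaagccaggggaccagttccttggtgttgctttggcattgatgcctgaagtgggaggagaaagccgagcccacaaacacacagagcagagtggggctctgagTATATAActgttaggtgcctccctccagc
AMIGO2-203 upstream: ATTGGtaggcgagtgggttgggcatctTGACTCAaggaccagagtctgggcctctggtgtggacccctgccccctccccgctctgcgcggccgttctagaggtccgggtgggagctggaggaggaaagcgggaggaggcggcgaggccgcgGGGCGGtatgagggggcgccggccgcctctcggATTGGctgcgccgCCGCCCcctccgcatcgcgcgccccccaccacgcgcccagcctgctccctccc

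The sequences differ in composition. The SLC14A1 sequence is 49.6% G and C with 2 CpG pairs, and the AMIGO2 sequence 73.2% with 25, where the median of 35116 promoters of the same length was 58.0% with 11. For a TATA box the search used TATAAA and, as a separate variant, the letters TATATAA. The CCAAT box was searched by its own letters, the GC box as GGGCGG and the site of AP-1 factors as TGANTCA. An E-box was searched as CACGTG, and lastly the cyclic AMP response element (CRE) by the letters TGACGTCA. SLC14A1 held 1 match, TATATAA at positions -29 to -23 from the first transcribed base, a string present in 2.42% of all these promoters. AMIGO2 held TGACTCA at -223 to -217 (TGANTCA is in 6.57% of promoters), GGGCGG at -99 to -94 and as its reverse complement at -53 to -48 (42.6% of promoters), and CCAAT as its reverse complement at -250 to -246 and -66 to -62 (32.0% of promoters). No matches overlapped each other. These matches are letters in a window and say nothing of binding. KCNG1 had no entry.

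The knockdown comparison asks how RNA levels differ once HMGB2 is depleted. HMGB2 itself had 929 and 1021 counts in WT (27.1 and 27.3 CPM) and 118 and 145 counts in HMGB2 KD (3.22 and 3.64 CPM). It was thus lower in both knockdown libraries (log2 fold change -2.99, SE 0.16, adjusted p = 8.28e-07, edgeR's quasi-likelihood test).

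SLC14A1 was close to silent in WT and readily counted in HMGB2 KD. It had 46 and 78 counts in WT (1.34 and 2.09 CPM) and 400 and 896 counts in HMGB2 KD (10.9 and 22.5 CPM). Both knockdown libraries stood above both WT libraries, with the second at about the double of the first. The mean went from 1.72 ± 0.527 CPM to 16.7 ± 8.16 CPM (SD, n = 2 each), which gave a log2 difference of 3.28. Taking single libraries, the fold ranged from 5.23 (lowest knockdown over highest WT) to 16.7 (highest over lowest).

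AMIGO2 was expressed in WT and stood higher after knockdown. It had 550 and 669 counts in WT (16.1 and 17.9 CPM) and 2949 and 4390 counts in HMGB2 KD (80.6 and 110.0 CPM). The groups did not overlap, and again the second knockdown library was the higher. The mean went from 17.0 ± 1.31 CPM to 95.3 ± 20.9 CPM (SD, n = 2 each), for a log2 difference of 2.49 with single-library folds of 4.50 to 6.85.

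KCNG1 was the most counted of the 3 genes. It had 1056 and 964 counts in WT (30.8 and 25.8 CPM) and 3880 and 6398 counts in HMGB2 KD (106.0 and 160.0 CPM). The groups did not overlap, and the second knockdown library was the higher here too. The mean went from 28.3 ± 3.55 CPM to 133.0 ± 38.5 CPM (SD, n = 2 each), for a log2 difference of 2.23 with single-library folds of 3.44 to 6.21.

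Among all 15338 genes tested, 797 (5.2%) were called, which required a log2 fold change past 0.6 in either direction together with an adjusted p below 0.01. Of these, 438 (2.86% of all) were higher and 359 lower. With plain library totals in place of TMM scaling, 385 were higher and 484 lower. All 3 genes were among those called higher, and in 27.4% of the genes tested both knockdown libraries stood above both WT libraries. Nothing is read from these shares for SLC14A1, AMIGO2 and KCNG1, which were selected on this contrast.

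The label of the largest rises did not hold by fold change alone. Ranked by log2 fold change among the 438 genes called higher, SLC14A1 was in place 5, AMIGO2 in place 9 and KCNG1 in place 15. The first places were taken by CCDC144NL-AS1 (log2 fold change 4.36), PKIB (3.76), ANOS1 (3.46) and NRXN3 (3.43), named here after their values were seen. These are low-count genes: PKIB, an inhibitor of protein kinase A, had 3 and 1 counts in WT and 36 and 25 in HMGB2 KD. NRXN3, a synaptic adhesion protein, had 7 and 20 against 89 and 227. Cuts were also set on the mean CPM over the 4 libraries. With at least 1 CPM, 435 genes called higher remained, with SLC14A1 in place 2, AMIGO2 in place 6 and KCNG1 in place 12. Among the 411 with at least 5 CPM, SLC14A1 was in place 1, AMIGO2 in place 3 and KCNG1 in place 5. SLC14A1 passed the cut at 5 CPM only by its knockdown libraries, as both WT values (1.34 and 2.09) lay below it. The mean includes the libraries on which the genes were selected, so these places are a description only. Among the 376 with at least 10 CPM, where SLC14A1 no longer counted, AMIGO2 was in place 1 and KCNG1 in place 2. Directly after KCNG1 came GALNT6, an enzyme that starts O-glycosylation, with a log2 fold change of 2.23 (111 and 167 counts against 544 and 851). The next was FABP4, a fatty acid binding protein, with 2.13 (30 and 49 counts against 154 and 217).

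Per length of exons, the order of the 3 genes was different from that of the folds. CPM per kilobase of exon union were 20.3 and 27.8 for AMIGO2 and 19.6 and 29.6 for KCNG1 in HMGB2 KD, which placed them above 86.2% to 91.0% of the genes tested. SLC14A1 stood at 1.52 and 3.13 on the same scale, above 32.8% and 46.9% of genes. Its level after knockdown therefore remained below the WT levels of AMIGO2 (4.05 and 4.52) and KCNG1 (5.7 and 4.77), although its fold was the largest. The exon union of SLC14A1 (7182 bases) is longer than SLC14A1-201 (3971 bases), which lowers its value on this scale.

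**Figure D1:**
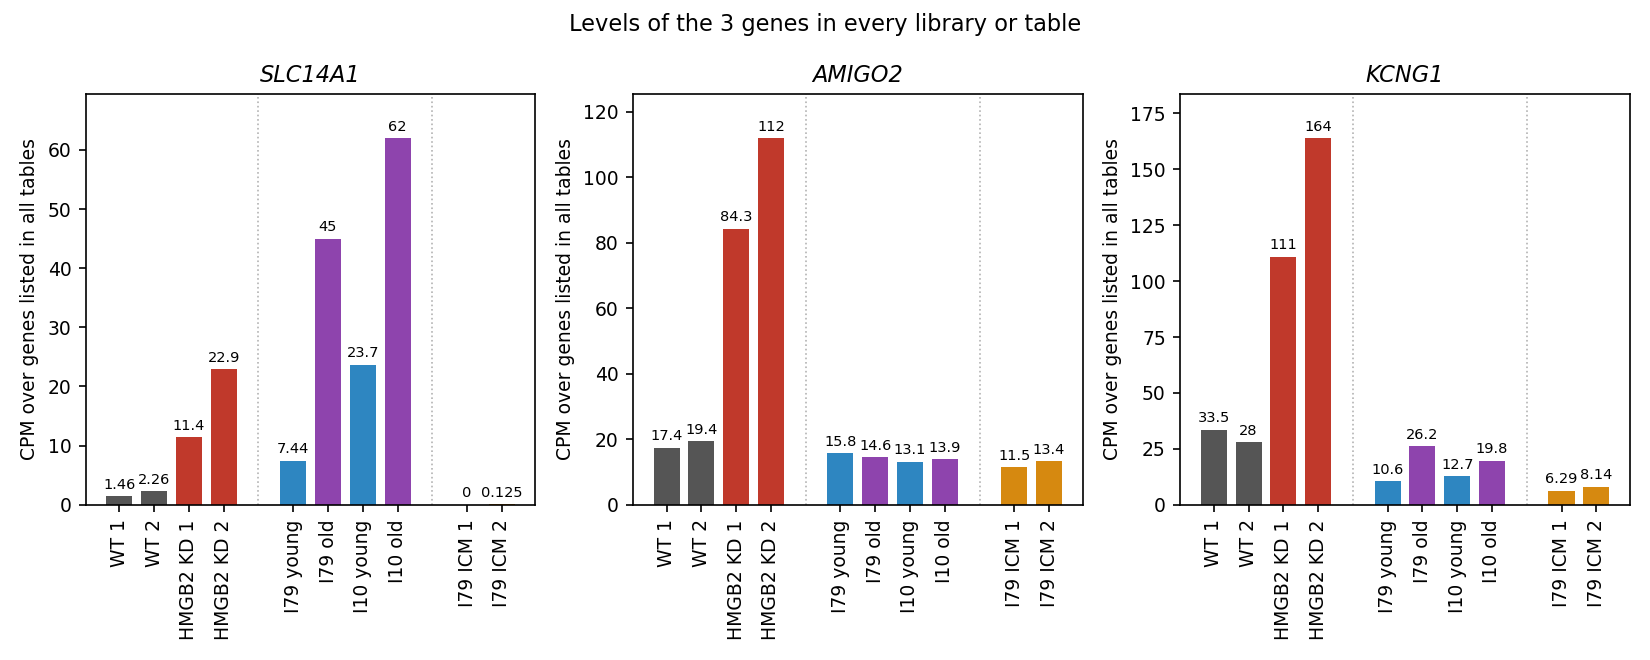
Levels of SLC14A1, AMIGO2 and KCNG1 in 10 libraries or tables, in CPM over the 24638 genes listed in all tables; bars are single libraries or tables, and dotted lines separate the 3 kinds of table, which were counted in different ways. AMIGO2 and KCNG1 are highest in HMGB2 KD, SLC14A1 is highest in the old tables, and SLC14A1 is at 0 and 0.125 CPM in the ICM libraries.

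The old and young tables address replicative senescence, in which HMGB2 also falls. HMGB2 had 122.0 and 141.0 CPM in I79 and I10 young and 38.2 and 46.3 CPM in I79 and I10 old (log2 fold change -1.64, SE 0.10, adjusted p = 0.00356). Of 15116 genes tested with isolate as a covariate, 1447 (9.57%) were called, 869 (5.75%) of them higher in old. With plain library totals, 1019 were higher and 2111 lower, and the median of all genes moved from -0.01 to -0.22 on the log2 scale. One of the 3 genes was called higher. Past 0.6 on the log2 scale in both isolates stood 2 of the 3 genes, beside 14.1% of all genes tested.

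SLC14A1 rose in both isolates. Isolate I79 had 102 estimated counts when young (6.53 CPM) and 817 when old (44.3 CPM), and I10 had 395 when young (20.6 CPM) and 1167 when old (64.5 CPM). Both old tables stood above both young ones, an order whose share among all genes is not given here. I10 young was already 3.16 times I79 young. The old to young fold was 6.79 in I79 (95% counting interval 5.52 to 8.42) and 3.13 in I10 (2.79 to 3.52); with 1 table per group the difference between isolates was not tested. Over both isolates the log2 fold change was 2.15 (SE 0.29, adjusted p = 0.00926, edgeR's quasi-likelihood test), and 2.69% of the genes tested had a higher one. The adjusted p lay between 5.65e-19 and 0.0407 over 4 other fits, and the call was lost in the fit without the isolate covariate (adjusted p = 0.0407), so it rests close to the threshold.

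KCNG1 was higher in old in both isolates but did not pass the threshold. Isolate I79 had 145 estimated counts when young (9.28 CPM) and 476 when old (25.8 CPM), and I10 had 212 when young (11.1 CPM) and 372 when old (20.6 CPM). The old and young tables did not overlap, again with no share of all genes beside it. The fold was 2.78 in I79 (counting interval 2.31 to 3.37) and 1.86 in I10 (1.57 to 2.21), and the log2 fold change over both was 1.18 (SE 0.20, adjusted p = 0.015). The gene was called by DESeq2 (adjusted p = 0.00418), without the filter on low counts (1.58e-07) and without the isolate covariate (0.00933), and was not called with plain library totals (log2 fold change 0.97, adjusted p = 0.0109).

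AMIGO2 had a like level in all 4 tables. Isolate I79 had 216 estimated counts when young (13.8 CPM) and 265 when old (14.4 CPM), and I10 had 218 when young (11.4 CPM) and 262 when old (14.5 CPM). The old tables were the 2 highest, by a narrow margin and again with no share of all genes beside it. The fold was 1.04 in I79 (counting interval 0.866 to 1.25) and 1.27 in I10 (1.06 to 1.53), and the log2 fold change over both was 0.20 (SE 0.16, adjusted p = 0.383), with -0.01 under plain library totals. A p above the threshold does not show an equal level, and the intervals cover counting error only.

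**Figure D2:**
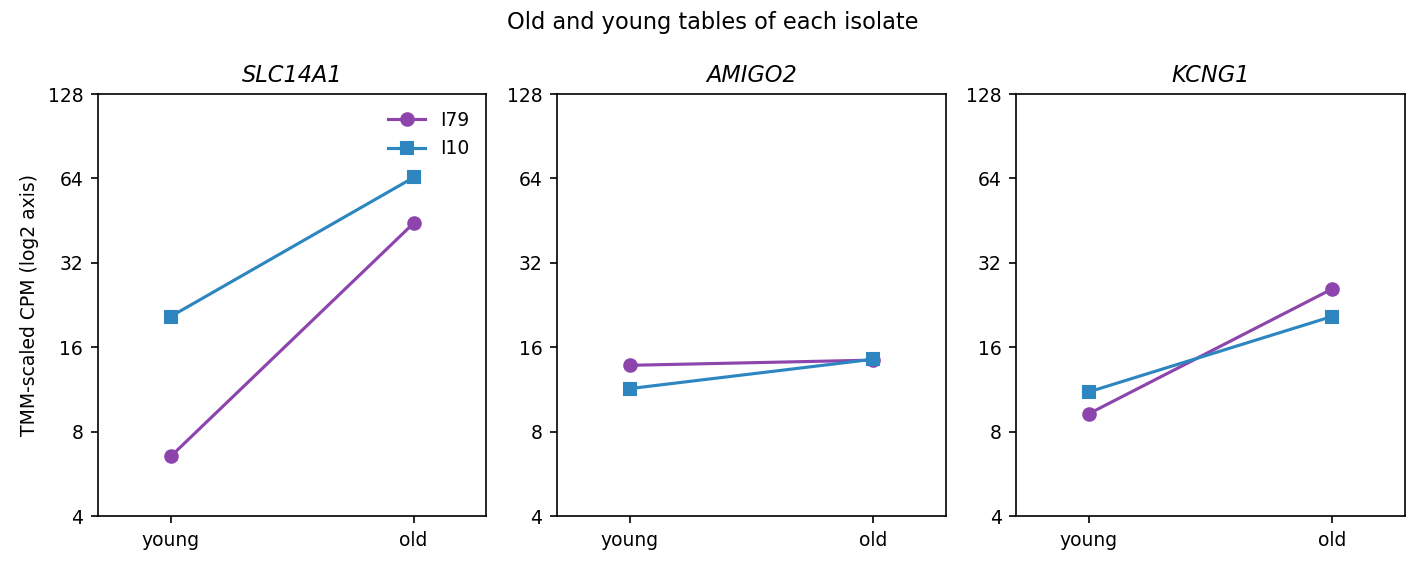
TMM-scaled CPM of SLC14A1, AMIGO2 and KCNG1 in the young and old tables of I79 (circles) and I10 (squares), on a log2 axis; each point is 1 table. SLC14A1 climbs in both isolates from 6.53 to 44.3 CPM and from 20.6 to 64.5 CPM, KCNG1 climbs less, and AMIGO2 stays between 11.4 and 14.5 CPM.

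**Figure D3:**
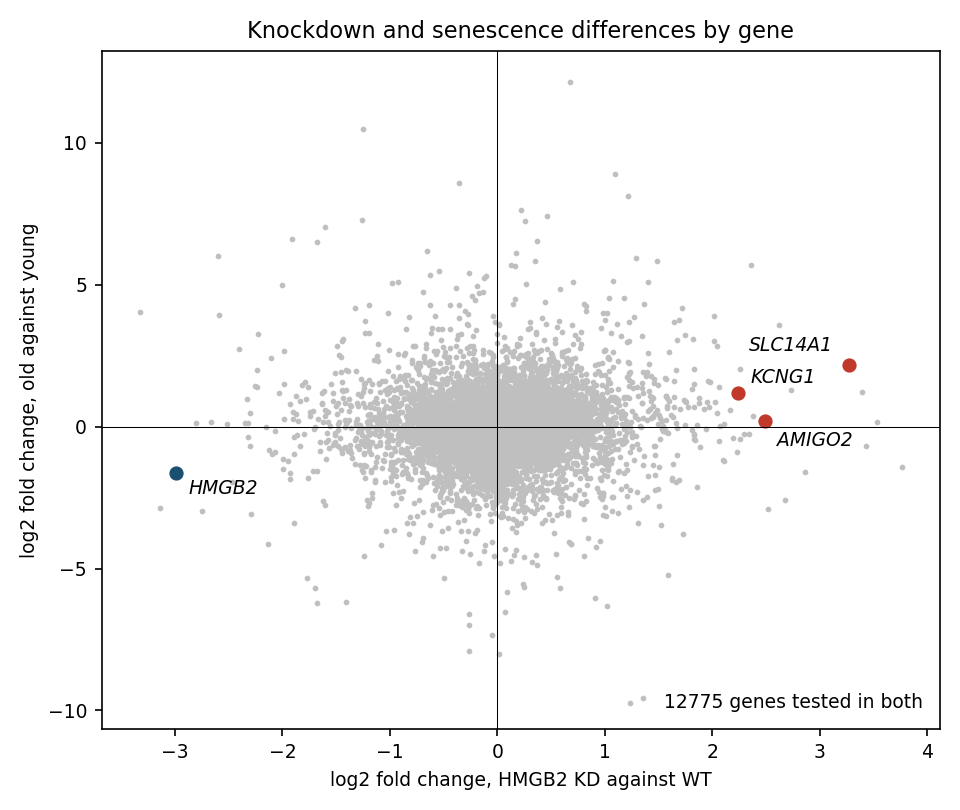
Log2 fold change of HMGB2 KD against WT (x axis) and of old against young (y axis) for 12775 genes tested in both contrasts, which share no library; each point is a gene. SLC14A1 (3.28 and 2.15) and KCNG1 (2.23 and 1.18) lie to the upper right, AMIGO2 (2.49 and 0.20) lies on the right near 0 on the y axis, and HMGB2 (-2.99 and -1.64) lies to the lower left.

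In TPM, which scale each transcript for its length and the library, the order of the 3 genes turned between young and old in I79 but not in I10. In I79 young the gene sums were 3.45 TPM for SLC14A1, 8.03 for AMIGO2 and 10.8 for KCNG1, and in I79 old they were 33.4, 7.36 and 23.7. SLC14A1 thus went from the lowest to the highest of them, from above 25.1% of the genes tested to above 74.2%. In I10 young it was already the highest at 15.4 TPM, beside 6.77 for AMIGO2 and 11.9 for KCNG1, and in I10 old the sums were 39.9, 7.32 and 16.7. On the log2(TPM + 0.1) scale AMIGO2 moved by -0.12 in I79 and 0.11 in I10.

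Of the SLC14A1 transcripts, SLC14A1-201, which begins at the upstream sequence shown above, had the highest level in every table. It went from 2.02 to 11.5 TPM in I79 and from 4.98 to 17.5 TPM in I10, and held 54.9% to 72.6% of the reads assigned to the gene. Its share of the gene's TPM was smaller, going from 58.5% to 34.3% in I79 and from 32.2% to 43.8% in I10, so much of the rise in TPM lay in other, mostly shorter transcripts. Of 20 annotated transcripts, 16 were above 0 TPM and 9 reached 1 TPM in some table. SLC14A1-213, which starts 3 bases further on, went from 0.364 to 2.23 TPM in I79 and from 0.879 to 6.96 TPM in I10. SLC14A1-204, with a start further downstream, was listed at 0 in I79 young and at 1.91 TPM in I79 old, and went from 1.22 to 2.14 TPM in I10. SLC14A1-215 was above 0 only in I79 old, at 6.06 TPM, which rested on 29.8 estimated reads. Shares of single transcripts are estimates from short reads on shared exons, and no test was run on them.

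**Figure D4:**
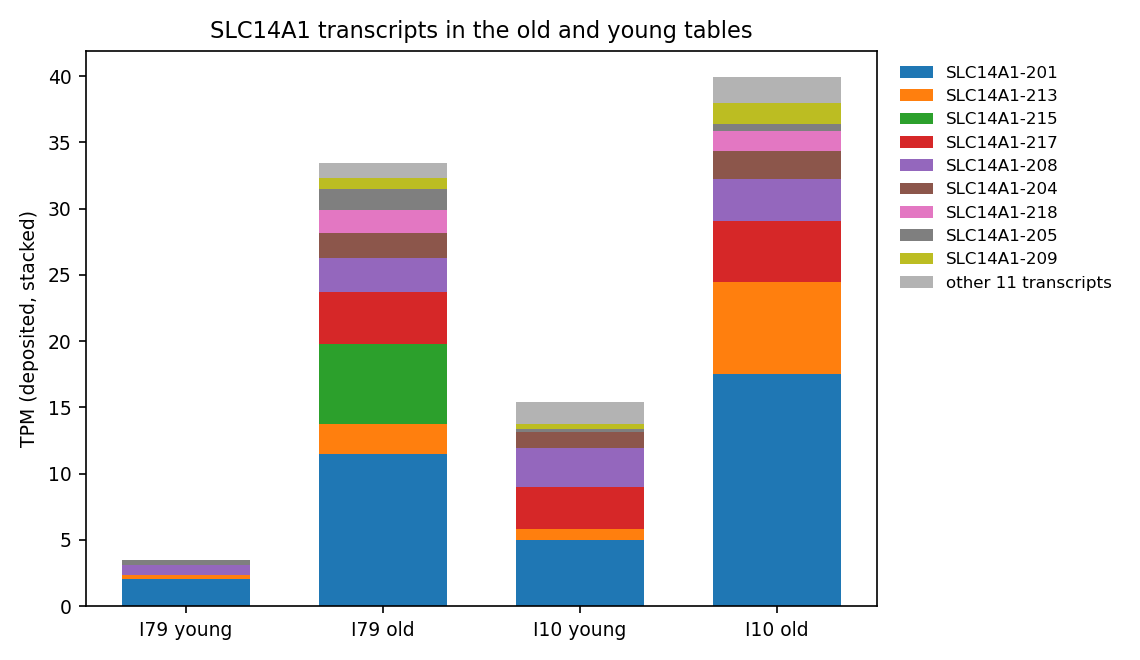
TPM of SLC14A1 transcripts in the 4 old and young tables, stacked by transcript; the 9 transcripts that reached 1 TPM are coloured and the other 11 are grey. SLC14A1-201 is the largest part of every bar, from 2.02 TPM in I79 young to 17.5 TPM in I10 old.

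AMIGO2 and KCNG1 were likewise read mostly as 1 transcript each. AMIGO2-203 held 71.0% to 82.6% of the AMIGO2 reads, at 6.64 and 5.64 TPM in I79 young and old and 5.41 and 6.32 TPM in I10 young and old. KCNG1-201 held 68.1% to 81.7% of the KCNG1 reads and went from 5.06 to 14.0 TPM in I79 and from 6.30 to 11.7 TPM in I10. The short KCNG1-205 moved the other way, from 3.17 to 2.59 TPM and from 1.53 to 0.872 TPM, on 4.9 to 14.2 estimated reads.

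The ICM libraries were set against I79 young as log2 ratios of CPM over the genes listed in all tables, with no test, since the kinds of table differ in how reads were counted. HMGB2 stood at 139.0 CPM in I79 young on this scale and at 4.43 and 5.93 CPM after ICM, a log2 ratio of -4.73. WT stood at 29.4 and 29.6 CPM, a log2 ratio to I79 young of -2.23 without ICM. The ICM ratio of HMGB2 therefore cannot be read as an effect of ICM alone. SLC14A1 had 102 estimated counts in I79 young (7.44 CPM) and 0 and 1.33 estimated reads in the ICM libraries (0 and 0.125 CPM), the latter in its 3′ untranslated region. It was thus all but uncounted in the ICM libraries, beside 817 estimated counts in I79 old. The kinds of table differ in how reads were counted, so this need not mean that its RNA was absent from the cells. The ratio of the summed ICM libraries to I79 young was 0.00762, with a counting interval of 0.000143 to 0.0326 (reads rounded to 1). The log2 ratio with the prior count was -5.80, and 0.379% of the 14258 genes compared had a lower one. The WT libraries, which no label ties to ICM, gave a background log2 ratio to I79 young of -1.98 for SLC14A1 by the same steps, so that ICM to WT came to -3.81.

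AMIGO2 had 216 estimated counts in I79 young (15.8 CPM) and 148 and 142 reads after ICM (11.5 and 13.4 CPM). Both ICM libraries lay below I79 young, 1 of them within the range of the 4 old and young tables (13.1 to 15.8 CPM) and 1 under it. The log2 ratio was -0.34, beside a background of 0.22 for WT. KCNG1 had 145 estimated counts in I79 young (10.6 CPM) and 81 and 86.5 reads after ICM (6.29 and 8.14 CPM), again lower in both libraries. Its log2 ratio was -0.56, beside 1.52 for WT, which is larger in size than the ratio itself. WT and I79 young differ in how reads were counted and may differ in isolate, and these cannot be told apart. Past 0.6 lower lay 1 of the 3 genes (SLC14A1), beside 31.7% of all genes. Coding region reads made up 74.3% and 73.2% of the AMIGO2 reads and 72.8% and 56.1% of the KCNG1 reads, where all genes together had 61.7% and 62.5%.

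Set side by side, the 3 genes are described below, and no test compared them with each other. SLC14A1 was higher in HMGB2 KD and in old cells and had near 0 reads in the ICM libraries. KCNG1 was higher in HMGB2 KD and higher in old cells short of the threshold, though called in some other fits. In old against young, SLC14A1 and KCNG1 lay close to the threshold on either side. The ICM log2 ratio of KCNG1 was -0.56, smaller in size than the background ratio of 1.52 and opposite in sign. AMIGO2 was higher in HMGB2 KD, with a difference in old cells that did not pass the test and an ICM log2 ratio of -0.34.

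The genes most like each of them were sought over 3 log2 differences (HMGB2 KD against WT, I79 old against young, I10 old against young) by Euclidean distance among 12775 genes. Nearest to SLC14A1 were TACR1, the substance P receptor (distance 1.02; log2 differences 2.62, 2.39 and 2.34), CPA4, a carboxypeptidase (1.35; 2.26, 1.97 and 2.08), and DUSP8, a phosphatase of MAP kinases (1.52; 1 and 2 counts in WT against 18 and 18). Nearest to AMIGO2 were ADM2, a peptide hormone of the calcitonin family (0.29; 2.37, 0.32 and 0.40), FZD8, a WNT receptor (0.47; 2.11, 0.08 and 0.07), and LMCD1-AS1, a noncoding RNA (0.52; 4 and 1 counts against 11 and 14). Nearest to KCNG1 were PRR5L, a partner of the kinase complex mTORC2 (0.54; 1.95, 1.10 and 0.61), PTPRB, a receptor phosphatase (0.64; 1.95, 1.98 and 1.14), and LSP1P5, a pseudogene whose reads may belong to related copies (0.65). The distances include the knockdown difference on which the 3 genes were selected, so they only order the genes. The 3 genes were not each other's nearest: KCNG1 came in place 11 for SLC14A1 and in place 97 for AMIGO2.

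Relatives of the 3 genes were taken from 4 lists. In the list of urea transport and metabolism, 8 of 15 genes were tested after knockdown, and 0 were called higher and 1 lower (12.5% called, beside 5.2% of all genes; median log2 fold change -0.15, beside 0.00). The one that fell was ASL, the urea cycle enzyme argininosuccinate lyase, from 8554 and 5845 counts to 1645 and 1385 (log2 fold change -2.35, adjusted p = 2.33e-05). In the comparison of old with young 0 of 8 passed (beside 9.57% of all genes called, with a median of -0.35, beside -0.01). With 8 genes tested, this cannot be set apart from the share of all genes. The most highly expressed, ASL and ASS1, had log2 fold changes of 0.14 (adjusted p = 0.594) and 0.69 (adjusted p = 0.0111). In each of 5 other settings, 1 to 3 genes of the list were called. The second urea transporter gene, SLC14A2, had at most 2 counts in any WT or HMGB2 KD library and at most 5 in any old or young table.

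Of 33 genes of the AMIGO family and related leucine-rich repeat adhesion proteins, 15 were tested after knockdown, with 0 called higher and 2 lower (13.3% called, beside 5.2% of all genes; median 0.31, beside 0.00). This split depended on the setting: ELFN2 (log2 fold change 0.78, adjusted p = 0.0136), ELFN1 (1.63, adjusted p = 0.025) and FLRT1 (1.65, adjusted p = 0.0229), all with positive differences, were called too without the filter, with 1 RUVs factor and at an adjusted p under 0.05, which made 3 higher and 2 lower. FLRT2, an adhesion protein and guidance ligand, fell from 1885 and 2079 counts to 1014 and 1069 (log2 fold change -1.02, adjusted p = 0.000242), and SLITRK6, a neuronal adhesion protein, from 436 and 484 to 124 and 96 (-2.15, adjusted p = 5.06e-05). The closest relatives AMIGO1 (152 and 146 counts against 149 and 211) and AMIGO3 (190 and 209 against 169 and 235) did not pass, at log2 fold changes of 0.17 (adjusted p = 0.753) and -0.08 (adjusted p = 0.875). Between old and young 2 of 16 were called, both lower (12.5%, beside 9.57% of all genes; median -0.09, beside -0.01). LRIG3 went from 990 and 1312 counts in young to 607 and 544 in old (-1.07, adjusted p = 0.00651). ISLR went from 61 and 71 counts to 0 and 0 (adjusted p = 0.00779). It was also at 0 in every WT and HMGB2 KD library, so a count of 0 is not particular to the old tables.

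Of 39 other voltage-gated potassium channel subunits, 14 were tested after knockdown, with 1 called higher and 0 lower (7.14%, beside 5.2% of all genes; median 0.26, beside 0.00). This was KCNH1, a pore-forming subunit of the ether-a-go-go family, which rose from 56 and 89 counts to 281 and 461 (log2 fold change 2.25, adjusted p = 0.000176) and so lay directly before KCNG1 in the ranking. In old against young 1 of 9 was called (11.1%, beside 9.57% of all genes; median 0.45, beside -0.01): KCNS3, a silent subunit of the same kind as KCNG1, rose from 9 and 5 counts in young to 82 and 65 in old (3.30, adjusted p = 0.00846).

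Among the HMGB proteins and receptors of HMGB1, 3 of 7 genes were tested after knockdown, and only the target was called. HMGB1 (12510 and 13333 counts against 14103 and 13854; log2 fold change 0.02, adjusted p = 0.96) and HMGB3 (1197 and 1286 against 1466 and 1503; 0.16, adjusted p = 0.499) did not pass. In old against young 3 of 4 were called, all lower: HMGB1 (-1.42, adjusted p = 0.00463), HMGB2 and HMGB3 (-1.59, adjusted p = 0.00416). The shares called were 33.3% after knockdown (beside 5.2% of all genes; median log2 fold change 0.02) and 75% in old (beside 9.57%; median -1.51).

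Genes that start within 500 kb of the 3 gene starts were examined next, with 5.2% of all genes called after knockdown and 2.86% called higher as the background. For old against young the background was 9.57% called and 5.75% called higher. Neighbours were not tested as a set. Beside AMIGO2, PCED1B, a putative esterase gene on the opposite strand that starts 0.4 kb away, rose from 54 and 61 counts to 164 and 278 (log2 fold change 1.83, SE 0.30, adjusted p = 0.00128), and its share of reads from the 357 overlapping bases cannot be told apart. PCED1B had 10 and 11 counts in young and 27 and 37 in old (1.52, adjusted p = 0.0595), where AMIGO2 differed by 0.20. The other tested gene in this window, SLC38A4, had a log2 fold change of 0.91 after knockdown (adjusted p = 0.235).

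Of 6 tested genes around SLC14A1, 1 was called after knockdown, a count too small to set apart from the 5.2% of all genes. PSTPIP2, a cytoskeletal adaptor gene 385.2 kb downstream, rose from 438 and 529 counts to 858 and 826 (log2 fold change 0.71, adjusted p = 0.00675), and it was also called higher in old (1.42, adjusted p = 0.00559). The nearest tested gene, SIGLEC15, a sialic acid binding receptor 138.6 kb downstream, had 18 and 10 counts in WT and 37 and 114 in HMGB2 KD (2.29, SE 0.57, adjusted p = 0.0187) and was not called. In old against young, 2 of the 6 were called higher and 1 lower. Besides PSTPIP2, EPG5, an autophagy gene, was higher (1.58, adjusted p = 0.00417) and HAUS1, a spindle gene, lower (-1.02, adjusted p = 0.00889).

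Around KCNG1, 10 genes were tested after knockdown and 0 were called higher. RIPOR3, 331.6 kb downstream, fell from 34299 and 30309 counts to 16079 and 14163 (log2 fold change -1.19, adjusted p = 0.000411), the direction opposite to KCNG1. In old against young, 8 genes of this window were tested, with 3 called higher and 0 lower. These were RIPOR3 (3.31, adjusted p = 0.00324), its antisense RNA RIPOR3-AS1 (3.49, adjusted p = 0.00601) and BCAS4 (0.97, adjusted p = 0.00965). RIPOR3 had 34299 and 30309 counts in WT and 80 estimated counts in I79 young, a further wide difference between these tables. The nearest tested gene, DPM1, 64.0 kb downstream, had a log2 fold change of -0.16 after knockdown (adjusted p = 0.543).

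**Figure D5:**
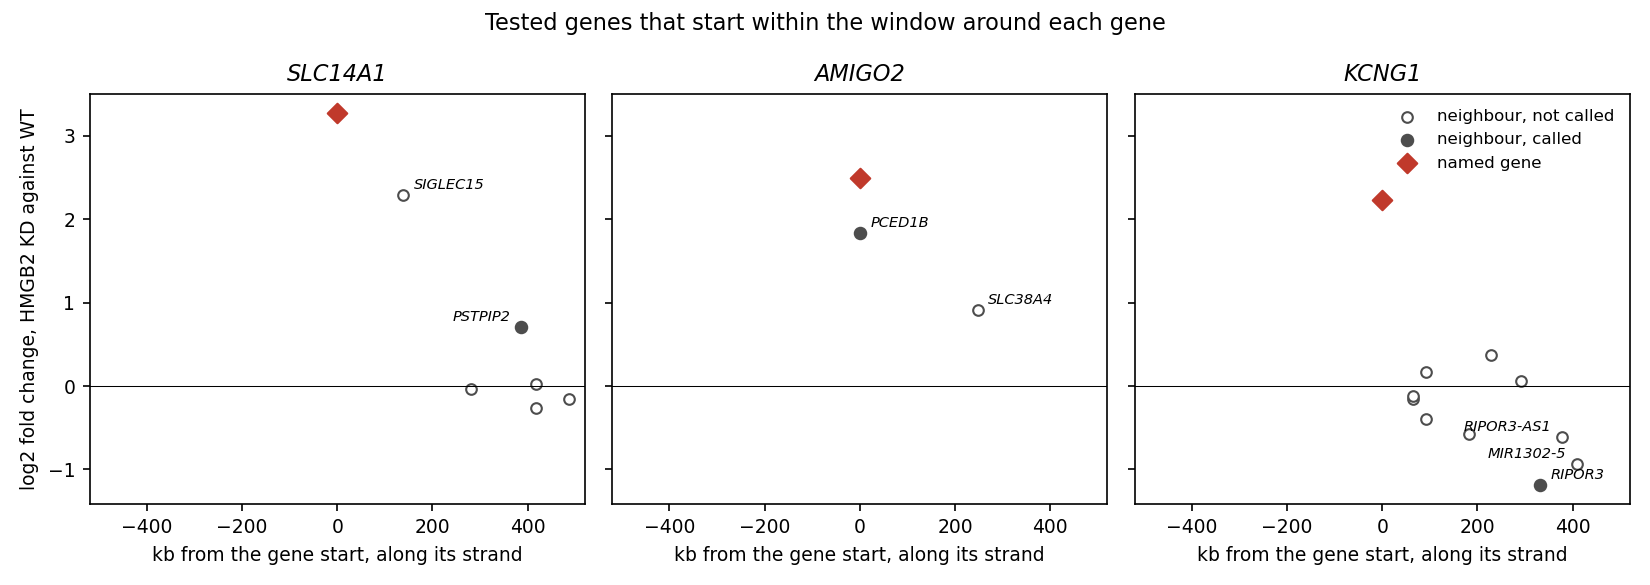
Log2 fold change of HMGB2 KD against WT for tested genes that start within 500 kb of SLC14A1, AMIGO2 and KCNG1, by distance of their starts in kb along the strand of the named gene; diamonds are the named genes, filled circles called neighbours and open circles neighbours not called. PCED1B (1.83) lies beside AMIGO2, PSTPIP2 (0.71) is called near SLC14A1, and RIPOR3 (-1.19) is lower near KCNG1.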

How the data were processed

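SLC14A1, AMIGO2 and KCNG1, the gene lists and the rule for the genes named (the genes themselves, HMGB2, the next 2 in rank, the 3 most alike, list genes called, and neighbours within 500 kb) were chosen with earlier results of these data known. Raw counts per gene (54628 symbols) were deposited by the authors for each WT and HMGB2 KD library; the study names STAR, hg19 and featureCounts, while the tables end with totals of unassigned reads in the layout of another counter (16.9% to 18.0% of reads, left out). For old and young cells the authors deposited estimated counts and TPM per transcript; these were summed per gene through GENCODE v44 lifted to GRCh37 (97.7% of transcript IDs matched) and rounded. For ICM the authors deposited estimated counts per gene and region (38716 symbols); the study names STAR and hg19 for its RNA-seq, but this layout may come from its separate assignment of short reads to transcripts, and which applies is not stated.

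The test was edgeR 4.0.16 under R 4.3.3, with its quasi-likelihood fit, TMM and filterByExpr, with Benjamini-Hochberg adjustment over all genes tested. HMGB2 KD was compared with WT (2 against 2). Old was compared with young with isolate as a covariate, which left 1 residual degree of freedom. Nothing says that replicates came from separate cultures, so p-values measure the spread between these samples. Levels across tables are CPM over 24638 shared genes, and log2 values across tables used a prior count of 2. Counting intervals are exact Clopper-Pearson intervals at 95% and cover counting error only. On simulated counts with 200 genes changed by 1.5 (log2), the knockdown design recovered 83.5% with 4 false calls among 14981 genes tested. The old against young design recovered 71.0% with 20 false calls among 14786 genes tested. False calls were thus a larger part of the calls in the old against young design. The simulation held no difference between isolates, so it does not cover that part of the real design. Alternatives were other scalings, DESeq2 1.42.0, no filter, RUVs, a replicate block, other covariates and single replicates left out. Some single genes of the lists and marker sets are not reported here.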

Additional observations from a re-analysis of the deposited data

How the results depend on the processing

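The log2 differences of SLC14A1, AMIGO2 and KCNG1 after knockdown kept their direction in all 9 alternatives, which is no independent support, since the genes were selected on these libraries. With single replicates left out they ranged from 2.67 to 3.69 for SLC14A1, 2.25 to 2.69 for AMIGO2 and 1.91 to 2.49 for KCNG1. Their places by fold among the genes called higher ranged from 3 to 10, 5 to 18 and 10 to 31. The count of genes called after knockdown (797) ranged from 312 to 999 with single replicates left out, 312 being without the second HMGB2 KD replicate. With the replicate block it was 1243. The deviations of WT 1 and HMGB2 KD 1 from their group means had a correlation of 0.124 over genes. Nothing in the labels ties same-numbered replicates, and whether they shared a batch was not tested. With the block, 10 of the list genes were called, in place of 5, and the log2 differences were 3.25, 2.47 and 2.21. List genes called after knockdown were 9 without the filter on low counts and 8 with 1 RUVs factor and at an adjusted p under 0.05, the 5 named ones being kept each time; the gained ones were FLRT1, ELFN1 and ELFN2, with KCNC4 without the filter and KCNH2 and KCNS3 with the block.

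Between old and young, 3130 genes were called with plain library totals, 4251 without the filter and 3860 at an adjusted p under 0.05, in place of 1447, and list genes called were 15 without the filter and 15 at an adjusted p under 0.05, in place of 6. SLC14A1 lost its call without the isolate covariate (log2 fold change 1.99). KCNG1 passed with DESeq2 (1.18), without the filter (1.16) and without the isolate covariate (1.19). AMIGO2 turned sign with plain library totals (-0.01) and stood at -0.01 in deposited TPM. For ICM, the log2 ratio of SLC14A1 was -7.05 with a prior count of 0.5, that of AMIGO2 -0.10 on coding region reads alone, and with WT in place of I79 young the ratios were -3.81, -0.57 and -2.08. Leaving out 1 ICM replicate gave -6.44 to -5.15, -0.45 to -0.24 and -0.74 to -0.37. Causes were not tested.

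Groups of 1 or 2 tables limit every comparison. The old against young test rests on 2 isolates, and the ICM ratios compare tables of different origin with no test.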
